A study of Mus musculus with 12 samples.

Results

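RNA from 12 libraries of mouse splenic cells, labelled as T cells, was read for 46 genes whose products fold proteins or answer to misfolded ones. The genes were listed by symbol, with earlier results of these data known, and make up 46 of the 35906 genes with a matched transcript. They fall into 18 cytosolic chaperones and co-chaperones, 3 mitochondrial chaperones, 18 genes of folding and degradation in the endoplasmic reticulum (ER) and 7 signalling genes of the unfolded protein response (UPR). All 46 had counts, and all 46 passed the filter on low counts in each of the 5 comparisons.

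The libraries form 4 groups of 3, labelled as biological replicates, all labelled as splenic donor T cells on a C57BL/6 background. TCF-1 cKO donors carry a floxed Tcf7 gene, which encodes the transcription factor TCF-1, and a Cre recombinase driven by the Cd4 promoter, so that Tcf7 is deleted in all T cells from the double-positive thymocyte stage on. WT donors lack that deletion, and the methods describe the mice as sex-matched young adults. Post-Tx libraries hold donor T cells sorted back at day 7 from spleens of lethally irradiated BALB/c mice that had received CD3 T cells. In the transplant model of the paper, recipients of either genotype of T cells also receive T cell-depleted bone marrow of WT C57BL/6 mice. Pre-Tx libraries are described as T cells sorted from donor spleens without a transplant. The groups are TCF-1 cKO Post-Tx, WT Post-Tx, TCF-1 cKO Pre-Tx and WT Pre-Tx. The sample labels name CD4 T cells, whereas the design text names CD8 T cells for Pre-Tx and both for Post-Tx.

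Markers of the sorted cells were read first, in normalized CPM, which are counts scaled to library size with the TMM factors of edgeR. In Post-Tx libraries Cd4 was 579 to 766 in TCF-1 cKO and 1139 to 1412 in WT, while Cd8a was below 15 in all 6 libraries. In Pre-Tx libraries Cd4 was no longer above Cd8a in most libraries, with Cd4 at 65.3 to 84.7 in TCF-1 cKO and 76.4 to 155 in WT, and Cd8a at 71.3 to 79.9 in TCF-1 cKO and 145 to 171 in WT. The 9 B cell markers summed to 8982 to 9667 in TCF-1 cKO and to 7234 to 9000 in WT before transplant, above the 8 T cell markers at 766 to 818 in TCF-1 cKO and 1356 to 1693 in WT, and to under 84 in every Post-Tx library. Before transplant the 6 erythroid markers summed to 4511 to 15073 in TCF-1 cKO and to 10022 to 29039 in WT. The 8 monocyte and macrophage markers summed to 2807 to 3276 in TCF-1 cKO and to 2681 to 4644 in WT. The Pre-Tx libraries thus held transcripts of B cells, erythroid cells, and monocytes or macrophages beside those of T cells. In such bulk samples fewer cells of a type and less RNA per cell cannot be told apart. Tcf7 itself was at 102, 114 and 127 in TCF-1 cKO Post-Tx, against 180.2, 177 and 187 in WT Post-Tx, and at 178, 136 and 159.7 in TCF-1 cKO Pre-Tx, against 181, 179.6 and 125 in WT Pre-Tx. The libraries held 17103415 to 49486745 estimated counts, the most in WT Post-Tx, and replicates correlated at a Pearson r of 0.869 to 0.955 over log2 CPM of all genes. The fold change of Tcf7 did not pass the test at either stage (adjusted p = 0.0669 and 0.924), and whole-gene counts need not show the loss of floxed exons, so genotypes are given as labelled.

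Molecular chaperones bind unfolded stretches of other proteins. In the cytosol HSP70 and HSP90 proteins pass clients between them with the help of J-domain co-chaperones and exchange factors, the ring-shaped TRiC complex folds actin and tubulin, and the heat shock factor HSF1 raises the genes of many of these proteins. In the ER, BiP (Hspa5), GRP94 (Hsp90b1), the lectins calnexin and calreticulin and the protein disulfide isomerases fold secreted and membrane proteins. When unfolded protein builds up there, the sensors IRE1 (Ern1), PERK (Eif2ak3) and ATF6 start the UPR, which acts through XBP1, ATF4 and the cleaved form of ATF6. T cells raise much of this machinery when they are activated and grow, and antibody-secreting cells of the B lineage carry very large amounts of it.

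Stretches of the promoters of 12 members are shown first, since they hold the letters that the heat shock and ER stress factors are known to bind. RefSeq promoter windows on GRCm38.p6, of 300 bases with 250 before and 50 after the start, were at hand for 37 of the 46 members. The ER stress element, bound by NF-Y and ATF6, was searched as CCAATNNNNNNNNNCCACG on both strands, where N is any base. It stood in the window of 7 of the 37 members, and in 0.137% of the 27025 genes with a window. All 7 members with this element are ER folding genes. Capitals mark the fixed letters of the motif, each sequence runs 5′ to 3′ on the strand of its gene, and a motif may read on either strand.
Hspa5: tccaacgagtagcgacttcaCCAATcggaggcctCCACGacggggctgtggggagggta
Hsp90b1: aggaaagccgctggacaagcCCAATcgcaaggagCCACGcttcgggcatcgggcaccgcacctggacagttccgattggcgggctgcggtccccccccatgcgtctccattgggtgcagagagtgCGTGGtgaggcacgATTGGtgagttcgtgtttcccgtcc
Calr: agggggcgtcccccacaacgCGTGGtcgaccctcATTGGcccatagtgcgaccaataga
Canx: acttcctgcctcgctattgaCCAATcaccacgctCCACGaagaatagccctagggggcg
Creld2: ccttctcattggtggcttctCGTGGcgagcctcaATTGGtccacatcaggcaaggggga
Dnajc3: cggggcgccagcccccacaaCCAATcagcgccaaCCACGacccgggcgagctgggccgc
Pdia6: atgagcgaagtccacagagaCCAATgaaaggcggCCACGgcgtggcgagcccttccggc
These stretches lie at chr2:34772005-34772063, plus strand (Hspa5), chr10:86705513-86705676, minus strand (Hsp90b1), chr8:84847055-84847113, minus strand (Calr), chr11:50325780-50325838, minus strand (Canx), chr15:88819500-88819558, plus strand (Creld2), chr14:118937807-118937865, plus strand (Dnajc3) and chr12:17266471-17266529, plus strand (Pdia6). The motif began 65 bases before the start in Hspa5, and Hsp90b1 held it at 2 places, 212 and 107 bases before the start, on opposite strands.

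The second form of the ER stress element, in which ATTGG and CCACG are parted by 1 base, stood in 2 of the 37 members, Dnajb11 and Herpud1, and in 0.0444% of genes with a window. The heat shock element, GAANNTTCNNGAA, stood in 3 of the 37 members, Hspd1, Hspe1 and Hsph1, and in 0.662% of genes. Hspd1 and Hspe1 lie head to head, and the same 58 bases between them, read from either strand, hold both of their elements, on both strands and overlapping.
Dnajb11: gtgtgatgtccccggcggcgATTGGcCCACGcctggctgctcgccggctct
Herpud1: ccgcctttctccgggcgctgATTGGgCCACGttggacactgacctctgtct
Hspd1: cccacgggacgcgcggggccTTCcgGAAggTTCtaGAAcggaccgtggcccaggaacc
Hspe1: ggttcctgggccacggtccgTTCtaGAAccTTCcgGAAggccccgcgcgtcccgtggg
Hsph1: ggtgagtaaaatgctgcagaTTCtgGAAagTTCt
These stretches lie at chr16:22857832-22857882, plus strand (Dnajb11), chr8:94386357-94386407, plus strand (Herpud1), chr1:55088039-55088096, minus strand (Hspd1), chr1:55088039-55088096, plus strand (Hspe1) and chr5:149636287-149636320, minus strand (Hsph1), and Hsph1 holds its element after the start. The core of the amino acid response element bound by ATF4 with C/EBP partners, TGATGNAA, stood in Herpud1 and Trib3 and in 4.51% of genes, and the UPR element core TGACGTGG stood in 0 of the 37 members and in 0.714% of genes. A match is a description of the letters in these windows, and no match says only that the letters are not there.

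Levels between genes were compared in TPM, which take the length of each transcript into account. The constitutive cytosolic HSP70, Hspa8, was the most abundant member at a mean of 1039 TPM over the 12 libraries, followed by the constitutive HSP90, Hsp90ab1, at 749.8 TPM. Hspa5 led the ER folding genes at 375 TPM, ahead of Calr at 291 TPM and the disulfide isomerase Pdia3 at 259.5 TPM. Hspe1, the lid of the mitochondrial chaperonin, led its class at 94.2 TPM, and Xbp1 led the UPR signalling genes at 107 TPM. The sensors Eif2ak3 and Ern1 were far lower at 6.35 and 4.80 TPM, and Trib3 averaged 3.12 TPM.

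Summed over their class, the 18 ER folding genes took 3274, 2621 and 3225 TPM in TCF-1 cKO Post-Tx libraries, 2963, 2611 and 2745 TPM in WT Post-Tx, 2072, 2013 and 2219 TPM in TCF-1 cKO Pre-Tx, and 1182, 1317 and 989 TPM in WT Pre-Tx. The 18 cytosolic genes took 4097, 3315 and 4378 TPM in TCF-1 cKO Post-Tx libraries, 4885, 4100 and 4294 TPM in WT Post-Tx, 3259, 3480 and 3696 TPM in TCF-1 cKO Pre-Tx, and 1807, 2088 and 1405 TPM in WT Pre-Tx. WT Pre-Tx libraries were thus the lowest of the 4 groups in both classes, with no overlap with any other group. All 46 genes together took 0.739% of TPM in TCF-1 cKO Post-Tx, 0.762% in WT Post-Tx, 0.603% in TCF-1 cKO Pre-Tx and as little as 0.321% in WT Pre-Tx. The 7 UPR signalling genes differed less, at 211 ± 20.6 TPM in TCF-1 cKO Post-Tx, 198 ± 24.7 TPM in WT Post-Tx, 251 ± 30.9 TPM in TCF-1 cKO Pre-Tx and 177 ± 33.1 TPM in WT Pre-Tx (SD, n = 3 each). These sums are descriptions with no test.

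**Figure D1:**
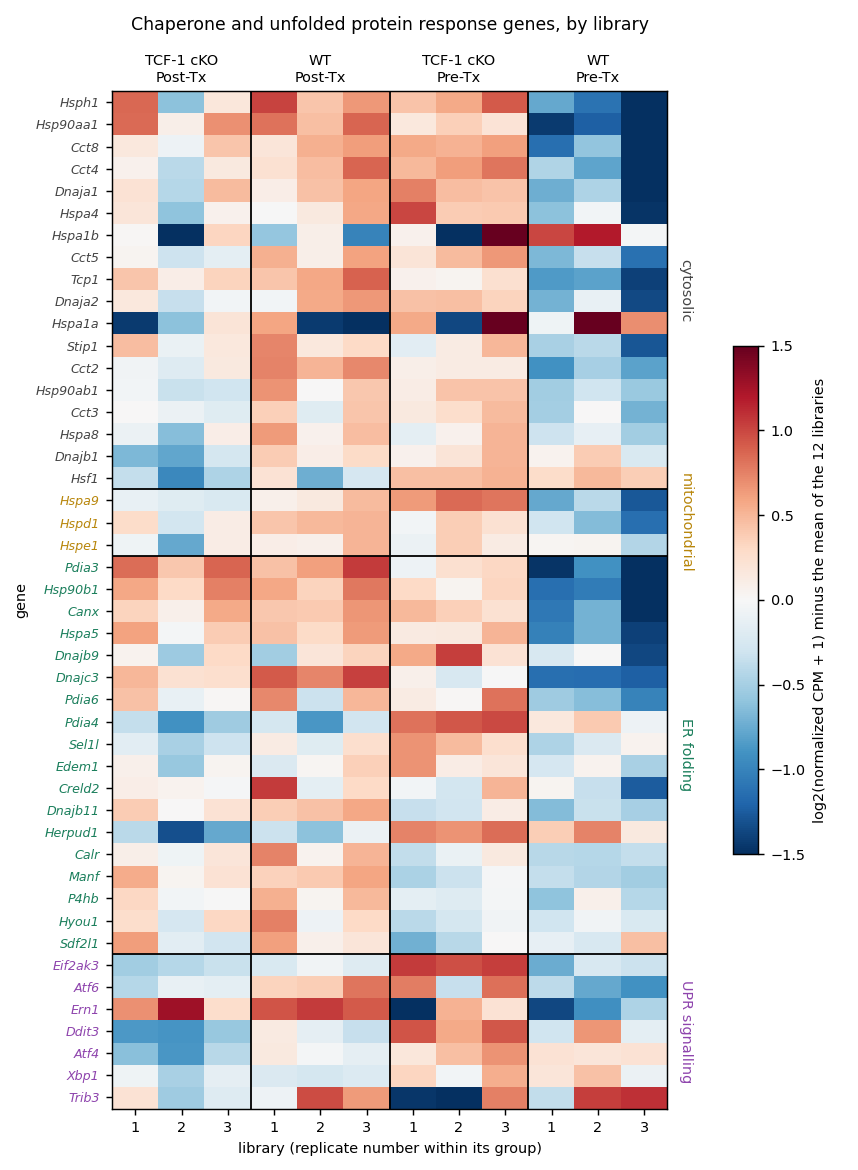
Levels of the 46 genes (rows, by class and by fold change in Pre-Tx) in the 12 libraries (columns, by group), as log2(normalized CPM + 1) minus the mean of that gene over the libraries, with normalization over all 12 libraries. The 3 WT Pre-Tx columns are blue for most cytosolic and ER folding rows, and the TCF-1 cKO Pre-Tx columns are not.

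TCF-1 cKO was compared with WT before transplant to read the effect of the genotype in donor cells without a transplant. Of the 46 genes, 22 were higher in TCF-1 cKO and 0 were lower at an adjusted p under 0.05 by edgeR's quasi-likelihood test with Benjamini-Hochberg adjustment over all 17021 genes tested, against 8.52% of all genes called higher and 5.65% called lower. The genes that rose were 12 of 18 cytosolic, 1 of 3 mitochondrial, 7 of 18 ER folding and 2 of 7 UPR signalling genes. At an unadjusted p under 0.05, 26 were higher and 0 lower, and DESeq2 called 23 higher and 0 lower. Over all genes DESeq2 called 11.4% higher and 11.2% lower. The 3 libraries of each genotype did not overlap for 28 genes, all higher in TCF-1 cKO, against 20.4% of all genes higher without overlap and 20.5% lower. The median log2 fold change was 0.81 over the 46 genes and -0.11 over all genes tested.

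Among the cytosolic genes, Hsp90aa1, the stress-inducible HSP90, was at 209, 233 and 189 in TCF-1 cKO libraries, against 63.5, 75 and 56.1 in WT libraries. Each TCF-1 cKO value was more than the highest WT value, and the log2 fold change was 1.70 ± 0.22 (SE, adjusted p = 0.00549). Hsph1, an exchange factor of the HSP110 family, was at 64.3, 68.9 and 79.3 in TCF-1 cKO libraries, against 25.5, 20.2 and 7.92 in WT libraries, with a log2 fold change of 1.98 ± 0.39 (SE, adjusted p = 0.0135). Hsp90ab1, the constitutive HSP90, was at 1486, 1794 and 1622 in TCF-1 cKO libraries, against 892, 1061 and 996 in WT libraries (log2 fold change 0.73, adjusted p = 0.0235). Hspa8 was at 1621, 1824 and 2252 in TCF-1 cKO libraries, against 1342, 1556 and 1337 in WT libraries, a difference of 0.43 that did not pass (adjusted p = 0.134).

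Of the 6 listed subunits of the TRiC chaperonin, which folds actin and tubulin, 5 rose in TCF-1 cKO. Cct8 was at 362, 343 and 329 in TCF-1 cKO libraries, against 104, 154 and 72.6 in WT libraries (log2 fold change 1.65, adjusted p = 0.00792). Cct5 was at 483, 568 and 581 in TCF-1 cKO libraries, against 246, 314 and 206 in WT libraries (1.09, adjusted p = 0.0132). Tcp1, the alpha subunit, was at 196, 188 and 195 in TCF-1 cKO libraries, against 96.8, 101 and 75.5 in WT libraries (1.08, adjusted p = 0.0135). Cct4 was at 180.1, 193 and 197 in TCF-1 cKO libraries, against 86.9, 69.7 and 32.4 in WT libraries (1.59, adjusted p = 0.0138), with the third WT library at less than all others. Cct2 rose too (0.80, adjusted p = 0.0367), and Cct3 was 0.64 with an adjusted p of 0.0659. All 6 listed subunits showed no overlap between the genotypes.

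The J-domain co-chaperones Dnaja1 and Dnaja2, which hand clients to HSP70, rose by log2 fold changes of 1.46 and 1.04 (adjusted p = 0.0159 and 0.0363). The exchange factor Hspa4 rose by 1.22 (adjusted p = 0.0343) and Stip1, which joins HSP70 to HSP90, by 0.82 (adjusted p = 0.0497). Dnajb1 and Hsf1 did not pass. Dnajb1, a J-domain partner that HSF1 induces, stood at 105, 112 and 126 in TCF-1 cKO libraries, against 96.6, 124 and 90.9 in WT libraries (0.14, adjusted p = 0.683), and its groups overlapped. Hsf1 stood at 89.8, 87.9 and 83.1 in TCF-1 cKO libraries, against 74.1, 86.9 and 90.8 in WT libraries (0.05, adjusted p = 0.888), also with overlap.

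Hspa1a and Hspa1b, the near-identical copies of inducible HSP70 whose reads can be split between them, were low and uneven. Hspa1a was at 3.76, 0.272 and 21.8 in TCF-1 cKO libraries, against 1.94, 7.52 and 4.46 in WT libraries, and Hspa1b at 4.35, 0.117 and 45.5 in TCF-1 cKO libraries, against 8.56, 9.98 and 4.27 in WT libraries. The third TCF-1 cKO library held by far the most of both, and the second nearly none. Summed as 1 gene they were at 8.1, 0.389 and 67.3 in TCF-1 cKO libraries, against 10.5, 17.5 and 8.73 in WT libraries, a log2 fold change of 1.04 that did not pass (adjusted p = 0.515). Their sign turned without the third TCF-1 cKO library (-1.16 for Hspa1a and -1.73 for Hspa1b).

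In the mitochondrion, Hspa9, the HSP70 that drives protein import, was at 165, 186 and 163 in TCF-1 cKO libraries, against 57.5, 75.2 and 46.2 in WT libraries, with a log2 fold change of 1.52 ± 0.24 (SE, adjusted p = 0.00767). Hspd1, the HSP60 chaperonin, was at 77, 100 and 82.1 in TCF-1 cKO libraries, against 59.7, 47.5 and 37.9 in WT libraries, without overlap but just outside the threshold (0.84, adjusted p = 0.0525). Its partner Hspe1, which shares the promoter shown above, differed by 0.23 (adjusted p = 0.585).

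Among the ER folding genes, Hspa5, which encodes BiP, was at 742, 725 and 842 in TCF-1 cKO libraries, against 311, 390 and 270.3 in WT libraries. The lowest TCF-1 cKO library was far above the highest WT library, and the log2 fold change was 1.25 ± 0.20 (SE, adjusted p = 0.00792). Hsp90b1, which encodes GRP94, was at 362, 293 and 321 in TCF-1 cKO libraries, against 124, 132 and 88.1 in WT libraries, with a log2 fold change of 1.5 ± 0.22 (SE, adjusted p = 0.00589). Pdia3, the disulfide isomerase that works with calnexin, was at 436, 527 and 499 in TCF-1 cKO libraries, against 153, 229 and 97.3 in WT libraries (1.61, adjusted p = 0.0104). Canx, the membrane-bound lectin calnexin, was at 271, 241 and 199 in TCF-1 cKO libraries, against 85, 112 and 60.8 in WT libraries (1.46, adjusted p = 0.0104). None of these 4 genes overlapped between the genotypes.

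Dnajc3, a J-domain partner of BiP, was at 105, 82.1 and 87.7 in TCF-1 cKO libraries, against 42.1, 42.4 and 45.2 in WT libraries (1.09, adjusted p = 0.0171). Pdia6, a further disulfide isomerase, was at 169, 152 and 241 in TCF-1 cKO libraries, against 99.1, 93.6 and 81.9 in WT libraries (1.03, adjusted p = 0.0203). Both were clear of the WT range, and Pdia4 also rose (0.71, adjusted p = 0.0304). With 1 library left out Dnajc3 passed in 4 of 6 fits and Pdia6 in 2 of 6. The other 11 ER folding genes did not pass and had log2 fold changes of -0.49 to 1.19. They include all 3 genes of ER-associated degradation, Sel1l at 0.63, Edem1 at 0.53 and Herpud1 at 0.27, and the small lumenal proteins Sdf2l1 at -0.49, Manf at 0.13 and Creld2 at 0.50. Of the 7 members with an ER stress element in the window, Hspa5, Hsp90b1, Canx, Dnajc3 and Pdia6 rose, while Calr at 0.25 and Creld2 did not pass. Dnajb11 at 0.28 and Herpud1, which hold its second form, did not pass either. Whether these elements bear on the values was not tested.

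Of the UPR signalling genes, Eif2ak3 and Atf6 rose. Eif2ak3, which encodes the sensor PERK, was at 43.3, 39.5 and 37.7 in TCF-1 cKO libraries, against 10.9, 16.2 and 17.1 in WT libraries, with a log2 fold change of 1.45 ± 0.33 (SE, adjusted p = 0.0199). Atf6 was at 72.3, 32.1 and 66.6 in TCF-1 cKO libraries, against 29.7, 23.1 and 23.5 in WT libraries (1.16, adjusted p = 0.0438), with the second TCF-1 cKO library close to the WT ones. Both were free of overlap. With 1 library left out Eif2ak3 passed in 3 of 6 fits and Atf6 in 1 of 6. The transcription factors downstream did not pass. Xbp1 was at 221, 167 and 227 in TCF-1 cKO libraries, against 187, 227 and 178 in WT libraries (0.05, adjusted p = 0.88), and Atf4 at 72.5, 85.9 and 91.1 in TCF-1 cKO libraries, against 69.9, 69.5 and 80.1 in WT libraries (0.19, adjusted p = 0.59).

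Ddit3, the ATF4 target that encodes CHOP, was at 36.1, 26.8 and 31.4 in TCF-1 cKO libraries, against 13.6, 27.9 and 17.5 in WT libraries, and the second WT library reached into the TCF-1 cKO range (0.67, adjusted p = 0.215). Ern1, which encodes the sensor IRE1, was at 0.692, 19.2 and 13.9 in TCF-1 cKO libraries, against 4.31, 6.32 and 10.2 in WT libraries, the first TCF-1 cKO library being near 0 (0.70, adjusted p = 0.583). Trib3, a pseudokinase that CHOP induces, was at 0.593, 0.0389 and 5.45 in TCF-1 cKO libraries, against 2.15, 7.31 and 8.61 in WT libraries (-1.57, adjusted p = 0.369). Gene counts sum all transcripts of Xbp1, so the spliced form that IRE1 makes was not read apart.

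**Figure D2:**
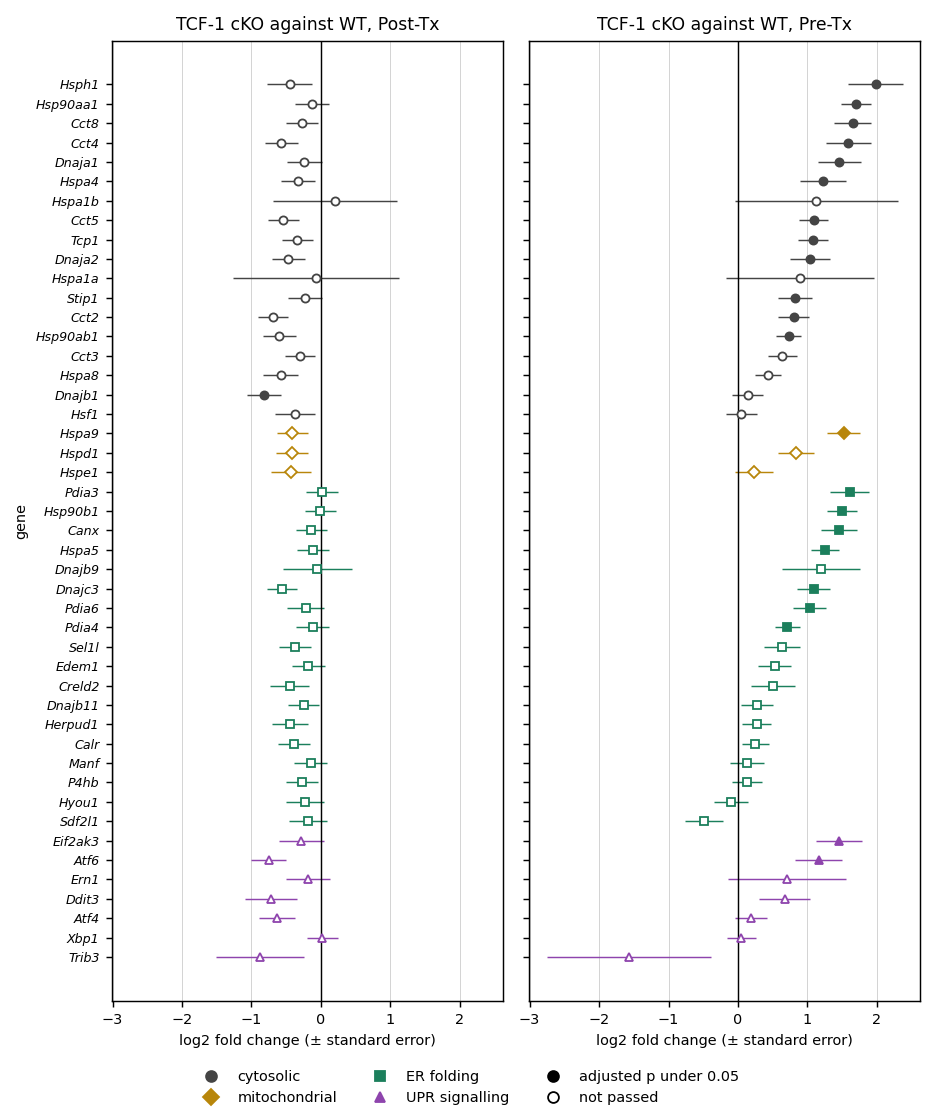
Log2 fold change of TCF-1 cKO against WT (x axis, bars of 1 standard error) for each of the 46 genes (rows), in Post-Tx at left and in Pre-Tx at right. Filled points pass an adjusted p of 0.05: 1 gene, Dnajb1, in Post-Tx and 22 genes in Pre-Tx.

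The Pre-Tx count rests on few libraries. Without WT Pre-Tx replicate 1 no member passed (0 of 46, with 23 higher at an unadjusted p under 0.05 and 10 genes called higher of all tested), while the median log2 fold change of the 46 genes was 0.76, and without TCF-1 cKO Pre-Tx replicate 1 or WT Pre-Tx replicate 3 the count was 12 and 14. Upper-quartile normalization, which moved the median of all genes by -0.36, left 13 genes higher. Of all genes it called 3.74% higher. Without TCF-1 cKO Pre-Tx replicate 1 and without WT Pre-Tx replicate 3, 1.79% and 3.27% of all genes were called higher. Over all genes upper-quartile normalization gave 636 higher and 2070 lower calls and TPM gave 1559 higher and 472 lower, where TMM gave 1451 higher and 962 lower. Several other values moved with the genotype in Pre-Tx: of 8 T cell markers 6 were lower in TCF-1 cKO, of 9 B cell markers 3 were higher, and of 12 cell cycle genes 4 were higher. Of 8 monocyte and macrophage markers 1 was higher, and of 6 erythroid markers 0 passed in either direction. NK cell markers summed to 187 to 232 in TCF-1 cKO and to 61.2 to 94.7 in WT, plasma cell markers to 613 to 644 in TCF-1 cKO and 509.9 to 794 in WT, and the 1407 olfactory receptor genes, which T cells are not known to use, to 860.2 to 1548 in TCF-1 cKO and 2597 to 6439 in WT. Their part in the chaperone result was not tested.

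GC content moved with the result as well. Over the 46 genes the Pre-Tx log2 fold change and the GC content of the transcripts had a Pearson r of -0.673, against -0.0927 over the 17006 tested genes with a GC value, a description over genes that share the same 6 libraries. The 22 genes that rose had a median GC content of 46.3%, and the 24 others of 52.7%. Among the 24 members with a GC content below 49.4%, 18 were higher, against 14.4% of all tested genes in that range, and among the 22 members at or above it 4 were higher, against 3.07% of all. With a smooth GC curve taken out of each library, an alternative chosen after the data were seen, 15 of the 22 stayed higher, and Atf6, Cct2, Dnaja2, Dnajc3, Hspa4, Pdia4 and Stip1 no longer passed. What lies behind the GC trend was not tested.

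**Figure D3:**
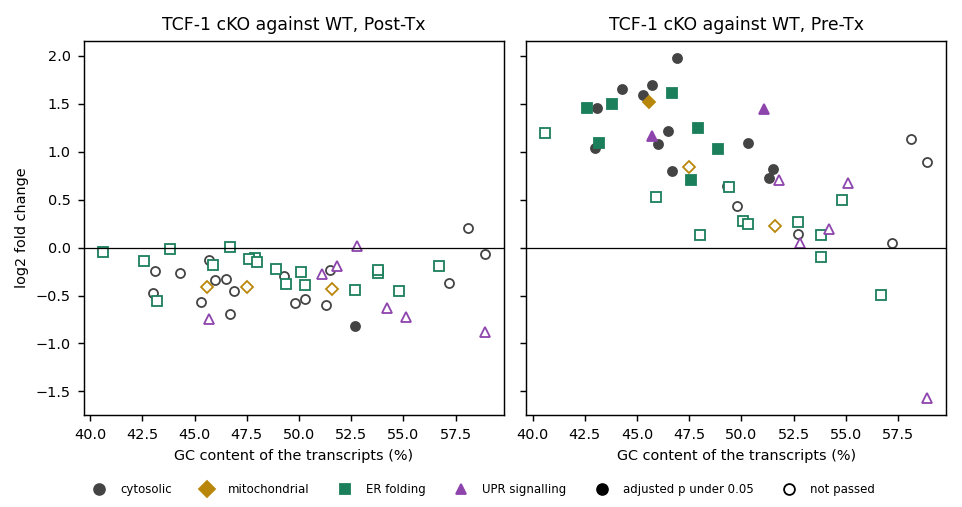
GC content of the transcripts (x axis, percent) against the log2 fold change of TCF-1 cKO against WT (y axis) for the 46 genes, in Post-Tx at left and in Pre-Tx at right. In Pre-Tx the filled points, which pass an adjusted p of 0.05, lie mostly below a GC content of 49.4%. In Post-Tx no such slope is seen over the 46 genes (r = -0.101). Over all tested genes with a GC value r was -0.231 in Post-Tx and -0.0927 in Pre-Tx.

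After transplant the same contrast asked how alloactivated donor cells differ with and without TCF-1. Of the 46 genes 0 were higher in TCF-1 cKO and 1 was lower, against 3.52% of all 19287 genes called higher and 3.13% called lower. At an unadjusted p under 0.05, 0 were higher and 9 lower, and DESeq2 called 0 higher and 3 lower. Over all genes DESeq2 called 10.2% higher and 7.19% lower. The groups did not overlap for 15 genes, all lower in TCF-1 cKO (all genes: 17.5% lower and 22.6% higher without overlap). The median log2 fold change of the 46 genes was -0.31 (all genes 0.09), and 43 were below 0. This lean faded to a near even split with other processing: with upper-quartile normalization 21 of 46 were above 0 and with limma on log2(TPM + 1) 23 of 45. Over all genes TMM gave 679 higher and 604 lower calls, upper-quartile normalization 687 higher and 111 lower, TPM 494 higher and 74 lower, and GC offsets 345 higher and 942 lower. A count of 1 of 46 is close to the share of all genes.

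The gene that fell was Dnajb1, at 74, 65.8 and 99.5 in TCF-1 cKO libraries, against 158, 130 and 133 in WT libraries, a log2 fold change of -0.82 ± 0.24 (SE, adjusted p = 0.0473) without overlap. It stayed below 0 in all 18 alternatives, at -1.04 to -0.41, and passed in 7 of them, among them 1 of the 6 fits that leave out 1 library. Hsf1 did not pass. It was at 60.6, 37.5 and 56.6 in TCF-1 cKO libraries, against 92.4, 47.3 and 60 in WT libraries (-0.37, adjusted p = 0.369), with overlap. Hspa1a, at 0.261, 1.28 and 3.19 in TCF-1 cKO libraries, against 4.6, 0.269 and 0.0583 in WT libraries, and Hspa1b, at 4.96, 0.177 and 6.43 in TCF-1 cKO libraries, against 2.94, 5.39 and 1.72 in WT libraries, stayed below 7 normalized CPM in every library of both genotypes (adjusted p = 0.972 and 0.883).

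In TPM the most abundant members were Hspa8, Hsp90ab1, Hspa5, Cct5 and Calr, and none of these 5 passed in Post-Tx. Hsp90ab1 was at 1590, 1242 and 1334 in TCF-1 cKO libraries, against 2652, 1681 and 1988 in WT libraries, lower without overlap (-0.60, adjusted p = 0.1). Cct5 was lower without overlap as well (-0.54, adjusted p = 0.114), and Calr overlapped (-0.39, adjusted p = 0.241). Hspa8 was at 1998, 1303 and 2296 in TCF-1 cKO libraries, against 3394, 2278 and 2703 in WT libraries (-0.58, adjusted p = 0.128). Among less abundant genes, Hsp90aa1 was at 400.4, 225 and 361 in TCF-1 cKO libraries, against 397, 309.5 and 373 in WT libraries (-0.13, adjusted p = 0.714), and Hspd1 at 114, 74.1 and 103 in TCF-1 cKO libraries, against 129, 135 and 123 in WT libraries (-0.41, adjusted p = 0.223). In the ER, Hspa5 was at 1211, 749.7 and 1048 in TCF-1 cKO libraries, against 1107, 996 and 1142 in WT libraries (-0.11, adjusted p = 0.749) and Hsp90b1 at 519, 407 and 592 in TCF-1 cKO libraries, against 532, 449 and 552 in WT libraries (-0.01, adjusted p = 0.968). For both ER genes the ranges of the genotypes lay over each other. The second TCF-1 cKO library was the lowest of the 6 in Hspa8, Hsp90aa1, Hspd1, Hspa5 and Hsp90b1.

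None of the 7 UPR signalling genes passed, and 4 of them did not overlap, all lower in TCF-1 cKO. Atf6 was at 36.7, 44.1 and 45.5 in TCF-1 cKO libraries, against 64.6, 66.4 and 80.8 in WT libraries (-0.75, adjusted p = 0.0701), Atf4 at 49.3, 39.5 and 57.7 in TCF-1 cKO libraries, against 86.9, 76.7 and 63.8 in WT libraries (-0.63, adjusted p = 0.107) and Ddit3 at 11.4, 10.7 and 14.4 in TCF-1 cKO libraries, against 24.3, 20.2 and 15.4 in WT libraries (-0.72, adjusted p = 0.185). Every TCF-1 cKO library of these 3 genes was under the lowest WT library. Eif2ak3 was at 16.5, 16.9 and 19.1 in TCF-1 cKO libraries, against 20.9, 23.8 and 19.2 in WT libraries (-0.28, adjusted p = 0.552), without overlap by a narrow margin, and its sign turned with TPM (0.09) and with a filter at a mean CPM of 10 (0.12). Xbp1 was at 200, 143 and 192 in TCF-1 cKO libraries, against 184, 178 and 167 in WT libraries (0.02), Ern1 at 26.2, 38.5 and 19.7 in TCF-1 cKO libraries, against 32.4, 35.1 and 28.7 in WT libraries (-0.19) and Trib3 at 4.7, 2.23 and 3.28 in TCF-1 cKO libraries, against 3.72, 8.93 and 6.12 in WT libraries (-0.88), with adjusted p of 0.965, 0.68 and 0.324, and their groups overlapped.

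Beside these values, T cell markers summed to 2675 to 3345 in TCF-1 cKO and to 4697 to 6436 in WT, with 6 of 8 lower, and erythroid markers to 1439 to 5382 in TCF-1 cKO and to 834 to 1540 in WT, with 5 of 6 higher. Immediate early genes that cell handling is known to raise summed to 639.9 to 879.7 in TCF-1 cKO and to 1012 to 1293 in WT, with 3 of 11 lower (Egr1, Btg2 and Ier2), and NK cell markers to 21.3 to 31.4 in TCF-1 cKO and to 33.2 to 44.2 in WT. The olfactory receptor genes summed to 4201 to 9820 in TCF-1 cKO and to 1278 to 3259 in WT. Their part in the Post-Tx values was not tested.

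Next, Post-Tx was compared with Pre-Tx within each genotype, in a fit of all 12 libraries, whose normalized CPM are on a common scale. Day, host and cell state differ at once between the stages, and so did the cell mix. In each genotype all 9 B cell and all 6 erythroid markers were lower in Post-Tx, and 7 of 8 T cell markers were higher. Whether a chaperone changed in T cells or with that mix cannot be told apart here. Of 12 cell cycle genes, 11 were higher in Post-Tx in TCF-1 cKO and 12 in WT.

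In WT, 25 of the 46 genes were higher in Post-Tx and 1 was lower, against 11.6% of all 21434 genes called higher and 10.4% called lower. The genes that rose were 12 of 18 cytosolic, 2 of 3 mitochondrial, 10 of 18 ER folding and 1 of 7 UPR signalling genes, with a median log2 fold change of 0.88 over the 46 (all genes -0.41). Across all alternatives the count of higher genes ran between 20 and 32, and the share of all genes called higher between 6.89% and 24.6%. GC content moved with this result too, with a Pearson r to the log2 fold change of -0.697 over the 46 genes (all genes -0.0473). Below a GC content of 49.4%, 18 of 24 members were higher (all genes 15.6%), and at or above it 7 of 22 (all genes 7.73%). What lies behind this was not tested. Over all genes TMM gave 2483 higher and 2223 lower calls, upper-quartile normalization 1852 higher and 3216 lower, and TPM 4120 higher and 1246 lower.

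Hsp90aa1 showed the largest cytosolic rise in WT, at 348, 271 and 363 in Post-Tx libraries, against 72.4, 84.1 and 55.8 in Pre-Tx libraries (2.21, adjusted p = 5.76e-06). Hsph1 was at 102, 67.1 and 79.2 in Post-Tx libraries, against 29.1, 22.7 and 7.89 in Pre-Tx libraries (2.06, adjusted p = 0.00206). Of the chaperonin subunits, Tcp1 was at 266, 298 and 369 in Post-Tx libraries, against 110.3, 114 and 75.2 in Pre-Tx libraries (1.64, adjusted p = 4.93e-05) and Cct8 at 294, 376 and 399.8 in Post-Tx libraries, against 118, 172 and 72.2 in Pre-Tx libraries (1.56, adjusted p = 0.000476). In all 4 genes the lowest Post-Tx library was above the highest Pre-Tx library. The mitochondrial genes Hspd1, at 113, 118 and 120 in Post-Tx libraries, against 68, 53.3 and 37.8 in Pre-Tx libraries, and Hspa9, at 118, 124 and 156 in Post-Tx libraries, against 65.5, 84.3 and 46 in Pre-Tx libraries, rose by 1.14 and 1.02 (adjusted p = 0.00394 and 0.00524).

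In the ER, Pdia3 was at 657, 743 and 1007 in Post-Tx libraries, against 174, 257 and 96.9 in Pre-Tx libraries (2.19, adjusted p = 4.63e-05) and Dnajc3 at 202, 177 and 217 in Post-Tx libraries, against 47.9, 47.6 and 45 in Pre-Tx libraries (2.08, adjusted p = 2.4e-06). Hsp90b1 was at 466, 393 and 538 in Post-Tx libraries, against 141, 149 and 87.7 in Pre-Tx libraries (1.89, adjusted p = 2.03e-05), and Canx at 270.3, 269.8 and 324 in Post-Tx libraries, against 96.9, 125 and 60.5 in Pre-Tx libraries (1.61, adjusted p = 0.000199). These 4 were again free of overlap, and Hspa5, Pdia6, Dnajb11, Manf, Calr and P4hb rose by 0.66 to 1.48. Of the 7 members with an ER stress element, 6 rose in WT and Creld2 did not pass (0.92, adjusted p = 0.0643). Of the 2 members with its second form, Dnajb11 rose and Herpud1 fell in WT. Atf6 was the UPR signalling gene that rose, at 56.6, 58.1 and 78.8 in Post-Tx libraries, against 33.8, 25.9 and 23.4 in Pre-Tx libraries (1.22, adjusted p = 0.0104).

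Herpud1, a membrane protein of ER-associated degradation, was the gene that fell in WT, at 114, 93 and 135 in Post-Tx libraries, against 186, 241 and 159 in Pre-Tx libraries (-0.78, adjusted p = 0.0356). It passed in 7 of 23 alternatives and kept its sign in all of them. Plasma cell markers summed to 85.6 to 120.4 in WT Post-Tx and to 509.9 to 794 in WT Pre-Tx on the scale of each stage, and their part in the values of Herpud1 was not tested.

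In TCF-1 cKO, 0 of the 46 genes were higher in Post-Tx and 9 were lower, against 14.2% of all genes called higher and 12.5% called lower. At an unadjusted p under 0.05 1 gene was higher and 15 lower, and DESeq2 called 0 higher and 11 lower. Over all genes DESeq2 called 18.1% higher and 14.1% lower. A share of 9 of 46 is above the share of all genes, but the split depended on the processing. Upper-quartile normalization gave 10 higher and 7 lower, a filter at a mean CPM of 10 gave 11 and 7, and limma on log2(TPM + 1), which also changes the test and the filter, gave 15 and 3. Over all genes TMM gave 3037 higher and 2676 lower calls, upper-quartile normalization 4485 higher and 1644 lower, and TPM 4872 higher and 1306 lower. As shares, upper-quartile normalization called 20.9% of all genes higher and 7.67% lower, and TPM 29.1% and 7.81%. The CPM filter called 17.2% and 16.0%. Without TCF-1 cKO Pre-Tx replicate 3 the counts of members were 2 higher and 4 lower, and without WT Pre-Tx replicate 3, which shares the fit, 0 and 14. Counting protein-coding transcripts alone gave 3 higher, Dnajb11, Dnajc3 and Manf, and 8 lower, and the same 3 genes were among those higher under each of the other 3 settings.

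The 9 genes that fell belong to all 4 classes. Herpud1 was at 108, 56.8 and 84 in Post-Tx libraries, against 239.7, 229 and 256 in Pre-Tx libraries (-1.54, adjusted p = 0.000406), and the disulfide isomerase Pdia4 at 289, 197 and 255 in Post-Tx libraries, against 652, 704 and 736 in Pre-Tx libraries (-1.5, adjusted p = 0.000163). Both passed in all 23 alternatives. In WT Pdia4 leaned the same way without passing (-0.62, adjusted p = 0.0554). Sel1l, an adaptor of the ER ubiquitin ligase, was at 96.4, 76.4 and 86.4 in Post-Tx libraries, against 173, 150 and 128 in Pre-Tx libraries (-0.80, adjusted p = 0.0189). Sel1l passed in 15 of 23 alternatives, at -0.92 to -0.05 over all of them. Hspa9 was at 104, 98.5 and 95.4 in Post-Tx libraries, against 175, 203 and 197 in Pre-Tx libraries (-0.95, adjusted p = 0.00906), the opposite of its direction in WT. In this fit none of the 7 members with an ER stress element passed in TCF-1 cKO, at -0.23 (Pdia6) to 0.39 (Dnajc3).

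Of the 7 UPR signalling genes, 3 fell in TCF-1 cKO and 4 did not pass (Atf6 at -0.74, Xbp1 at -0.51, Ern1 at 1.00 and Trib3 at 0.34). Ddit3 was at 10.2, 10 and 12.7 in Post-Tx libraries, against 38.2, 29.2 and 37.8 in Pre-Tx libraries (-1.68, adjusted p = 0.00338). Eif2ak3 was at 14.8, 15.8 and 16.9 in Post-Tx libraries, against 45.9, 43 and 45.5 in Pre-Tx libraries (-1.5, adjusted p = 0.00224), and Atf4 at 44.1, 36.9 and 51.2 in Post-Tx libraries, against 76.9, 93.6 and 109.9 in Pre-Tx libraries (-1.08, adjusted p = 0.00349). Every Post-Tx library of these 3 genes was below every Pre-Tx library. In WT the log2 fold changes were -0.25 for Ddit3, 0.28 for Eif2ak3 and -0.21 for Atf4, none of which passed. The interaction had an adjusted p of 0.00902 for Eif2ak3, 0.0427 for Ddit3 and 0.0547 for Atf4, so Ddit3 and Atf4 lay close to the threshold on either side. With 1 library left out the interaction of Eif2ak3 passed in 12 of 12 fits and that of Ddit3 in 2 of 12. The heat shock pair Hsf1 and Dnajb1 fell as well, Hsf1 at 54.2, 35.1 and 50.2 in Post-Tx libraries, against 95.2, 95.8 and 100.2 in Pre-Tx libraries (-1.06, adjusted p = 0.00898) and Dnajb1 at 66.2, 61.5 and 88.3 in Post-Tx libraries, against 111, 122 and 152 in Pre-Tx libraries (-0.84, adjusted p = 0.0187). Hsf1 passed in 20 and Dnajb1 in 16 of 23 alternatives. In WT neither passed, with Hsf1 at -0.59 (adjusted p = 0.118) and Dnajb1 at 0.17 (adjusted p = 0.615). The interaction passed for Dnajb1 (adjusted p = 0.0357) and not for Hsf1 (-0.47, adjusted p = 0.337).

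**Figure D4:**
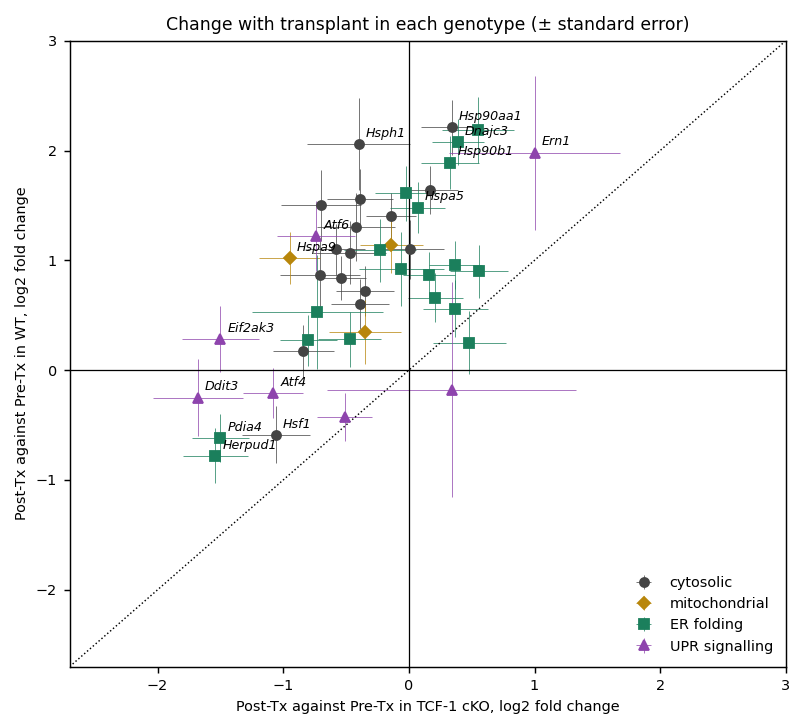
Log2 fold change of Post-Tx against Pre-Tx in TCF-1 cKO (x axis) and in WT (y axis) for 44 of the genes, with bars of 1 standard error, and a dotted line where both are equal. Hspa1a and Hspa1b, whose errors are over 1.2, are left out, and nearly all points lie above the line, since 44 of the 46 interaction values were below 0.

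The difference of the genotype effect between the stages was tested itself, as the interaction of genotype and transplant. It was below 0 at an adjusted p under 0.05 for 28 of the 46 genes and above 0 for 0, against 11.5% of all genes below and 17.1% above 0. At an unadjusted p under 0.05 it was below 0 for 31 and above for 0, and DESeq2 called 30 and 0. Over all genes DESeq2 called 13.5% below and 19.8% above 0. The median was -1.18 over the 46 genes and 0.37 over all genes. The interaction value and GC content had a Pearson r of 0.653 over the 46 genes (all genes -0.0686). Below a GC content of 49.4%, 21 of 24 members passed below 0 (all genes 15.5%), and at or above it 7 of 22 (all genes 7.71%). What lies behind this was not tested. This test uses the same 12 libraries as the comparisons above and is not separate evidence for them. In the same test 5 of 12 cell cycle genes passed below 0 and 0 above, and 5 of 6 erythroid markers passed above 0 and 0 below. Of 9 B cell markers 1 passed, below 0, and of 8 T cell markers 1 passed, above 0. The olfactory receptor genes summed to 860.2 to 1548 in TCF-1 cKO and to 2597 to 6439 in WT before transplant. After transplant they summed to 4201 to 9820 in TCF-1 cKO and to 1278 to 3259 in WT, on the scale of each stage. The part of these marker and olfactory genes in the interaction values was not tested.

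The 28 genes were 15 of 18 cytosolic, 2 of 3 mitochondrial, 8 of 18 ER folding and 3 of 7 UPR signalling genes. The largest differences were those of Hsph1 at -2.46 ± 0.58 (SE, adjusted p = 0.0085), Cct4 at -2.20 ± 0.45 (SE, adjusted p = 0.00458) and Hspa9 at -1.97 ± 0.34 (SE, adjusted p = 0.00242). In the ER they were those of Dnajc3 at -1.69 ± 0.29 (SE, adjusted p = 0.00246), Pdia3 at -1.64 ± 0.41 (SE, adjusted p = 0.0104) and Canx at -1.63 ± 0.35 (SE, adjusted p = 0.00553), and among the signalling genes those of Atf6 at -1.96 ± 0.44 (SE, adjusted p = 0.00683), Eif2ak3 at -1.78 ± 0.43 (SE, adjusted p = 0.00902) and Ddit3 at -1.42 ± 0.50 (SE, adjusted p = 0.0427). The 10 genes Hsp90aa1, Cct2, Cct4, Cct5, Cct8, Tcp1, Hspa9, Hsp90b1, Dnajc3 and Canx passed in all 23 alternatives. Over all genes TMM gave 2469 values below and 3665 above 0, upper-quartile normalization 720 below and 4865 above, and GC offsets 4027 below and 3309 above. The count of members was 13 with upper-quartile normalization, 14 with a filter at a mean CPM of 10 and 18 without TCF-1 cKO Post-Tx replicate 2. In the same order, 3.36%, 6.83% and 6.05% of all genes passed below 0. Hsf1, Hspa1a, Hspa1b, Hspe1, Xbp1, Atf4, Ern1, Trib3 and 10 ER folding genes, at values from -1.27 to 0.52, did not pass.

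**Figure D5:**
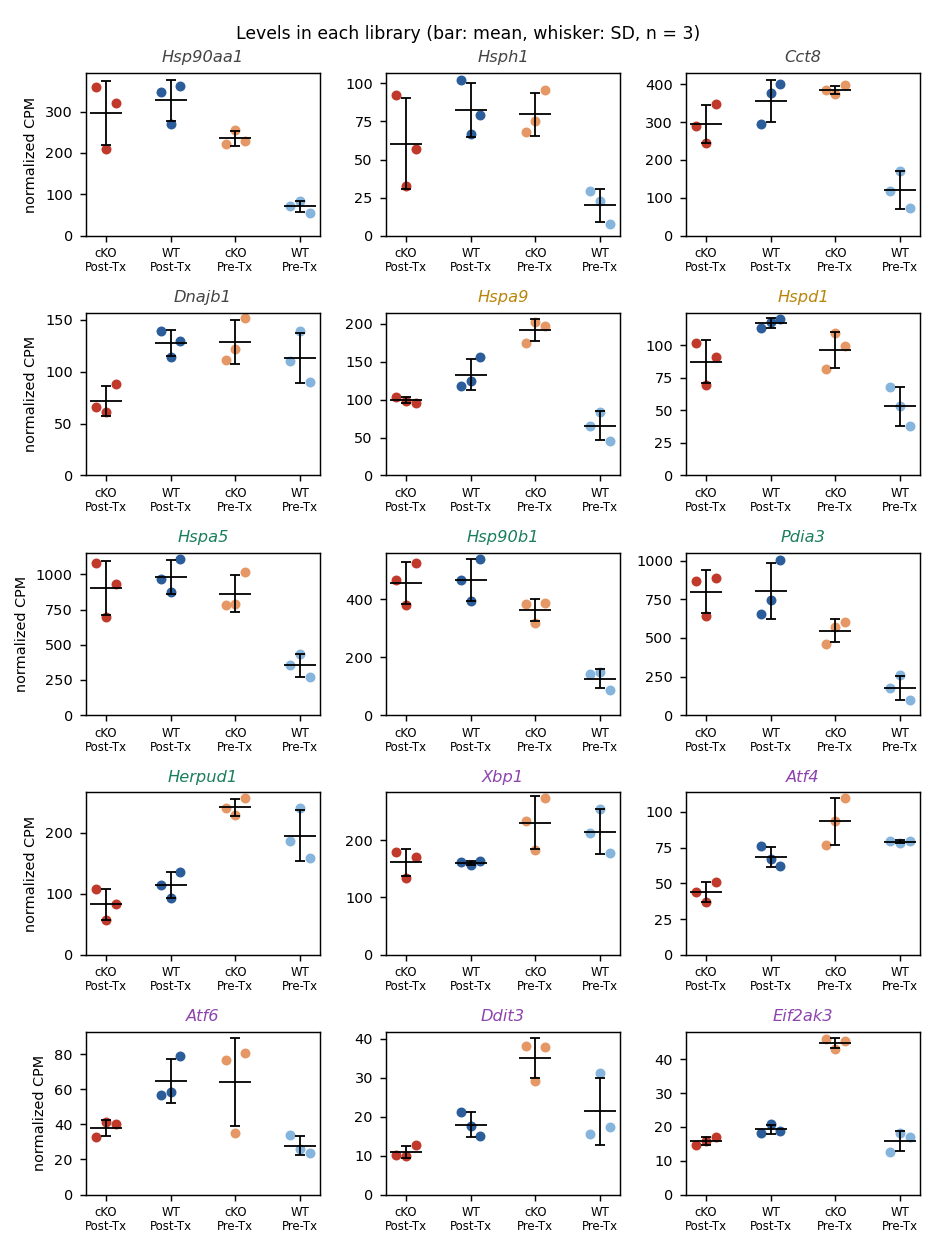
Normalized CPM over all 12 libraries (y axis, from 0) of 15 of the genes, with 1 point for each library, the mean (bar) and the SD (whisker) of each group of 3. WT Pre-Tx is the low group for Hsp90aa1, Hspa5, Hsp90b1 and Pdia3, TCF-1 cKO Pre-Tx is the high group for Eif2ak3, and TCF-1 cKO Post-Tx is the low group for Dnajb1 and Atf4.

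The wider pathway was read in 92 other genes of the same classes, which are no members. In Pre-Tx 11 of the 91 tested were higher in TCF-1 cKO and 1 was lower, against a background of 8.52% higher and 5.65% lower. They were led by Ptges3, the HSP90 co-chaperone p23 (1.42, adjusted p = 0.0105), Eif2s1, the subunit of the initiation factor that PERK phosphorylates (1.52, adjusted p = 0.0105), and Dnajc2, a ribosome-bound J-domain protein (2.20, adjusted p = 0.0176). The 1 lower gene, named after its values were seen, was Hspbp1 (-0.93). In Post-Tx 1 of 91 was higher, Mbtps2, a protease that cleaves ATF6 (1.65, adjusted p = 0.0208), and 2 were lower, Ddit4, a stress-induced inhibitor of mTORC1 (-1.51, adjusted p = 0.0175), and the disulfide isomerase Txndc5 (-0.75, adjusted p = 0.0456).

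With transplant, 3 of the 92 were higher and 18 lower in TCF-1 cKO, against 14.2% and 12.5% of all genes. In WT 23 were higher and 7 lower, against 11.6% and 10.4% of all genes. Fkbp5, an HSP90-binding immunophilin that glucocorticoids induce, rose in both genotypes (2.70 in TCF-1 cKO and 3.28 in WT, adjusted p = 8.68e-06 and 1.09e-06). Cnpy3, an ER co-chaperone of Toll-like receptors, fell in both (-2.16 in TCF-1 cKO and -1.94 in WT, adjusted p = 7.7e-06 and 1.78e-05). Txndc5 fell in TCF-1 cKO (-1.69, adjusted p = 9.75e-06) and Eif2s1 rose in WT (2.12, adjusted p = 1.47e-05). The other 2 that were higher in TCF-1 cKO, named after their values were seen, were the oxidase Ero1l (2.0) and Mbtps2 (1.87). The interaction was below 0 for 22 of the 92 and above 0 for 1, against 11.5% of all genes below and 17.1% above. The 22 were led by Eif2s1 (-1.96, adjusted p = 0.00272), Txndc5 (-1.26, adjusted p = 0.0053) and the glycoprotein folding sensor Uggt1 (-1.41, adjusted p = 0.00709), and the 1 above 0 was Mbtps2 (2.64).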

How the data were processed

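RNA of 12 libraries (SMART-Seq HT, Nextera XT, paired-end NovaSeq) was quantified by the authors with kallisto 0.46.2, per the methods and the submitters' processing notes, which name mm9. The deposited tables give an estimated count and a TPM for each transcript, made by the authors. The estimated counts were summed per gene over GENCODE M21 transcripts on GRCm38, where 116428 of 117497 transcripts matched and 0.282% to 0.386% of counts did not, and rounded to whole numbers. Deposited TPM values were summed per gene without rescaling. The 2 entries of Ddit3 were summed.

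Genes passing filterByExpr were scaled by TMM and tested by quasi-likelihood in edgeR 4.0.16 (R 4.3.3), with Benjamini-Hochberg adjustment over all genes tested and a threshold of 0.05. Genotypes were compared within each stage (6 libraries), and transplant and interaction effects in 1 fit of 12. Normalized CPM are on the scale of the fit they belong to. The fit was also run on simulated counts with known changes. These hold no difference in cell mix between the groups, so they do not bear on that limit. Alternatives were RLE and upper-quartile scaling, DESeq2 1.42.0, voom and limma 3.58.1, limma on log2(TPM + 1), other filters (none, or a mean CPM of 10), protein-coding transcripts, a replicate block, each library left out and, chosen after the data were seen, GC and GC with length offsets. Motif searches and tables were made in Python 3.11.15 (numpy 2.4.6, pandas 2.3.3), and plots with matplotlib 3.10.9.

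The members and lists were chosen with earlier results of these data known. Given in every library were, per genotype comparison and class, up to 6 members that passed with the smallest adjusted p, and 15 defining genes, and per transplant comparison up to 4 per class and direction. Other pathway genes were named up to 3 per comparison. Depth was 17103415 to 49486745 counts per library. The labels, design text and methods differ on CD4 or CD8 for the sorted cells, and groups follow the labels. Intervals of levels cover the spread between libraries only. Promoter sequences are from RefSeq (GRCm38.p6).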

Additional observations from a re-analysis of the deposited data

Results flagged for a closer look

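For 28 of the 46 genes the effect of the genotype differed between Post-Tx and Pre-Tx by the test of the interaction itself, in edgeR's quasi-likelihood fit of all 12 libraries at an adjusted p under 0.05. The value given is the log2 fold change of TCF-1 cKO against WT in Post-Tx minus that in Pre-Tx. The widest differences were those of Hsph1 (-2.46), Cct4 (-2.20), Hspa9 (-1.97), Atf6 (-1.96), Cct8 (-1.95), Hsp90aa1 (-1.87), Eif2ak3 (-1.78) and Dnaja1 (-1.72). Next came Dnajc3 (-1.69), Cct5 (-1.68), Pdia3 (-1.64), Canx (-1.63), Hspa4 (-1.57), Hsp90b1 (-1.56), Dnaja2 (-1.54), Cct2 (-1.54), Tcp1 (-1.47), Ddit3 (-1.42), Hspa5 (-1.41) and Hsp90ab1 (-1.38). The others were Pdia6 (-1.32), Hspd1 (-1.28), Stip1 (-1.10), Hspa8 (-1.07), Sel1l (-1.07), Dnajb1 (-1.01), Cct3 (-0.99) and Pdia4 (-0.88). In Pre-Tx the log2 fold change of TCF-1 cKO against WT was above 0 for each of these 28 genes. Groups of 3 libraries were not screened for outlying values.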

How the results depend on the processing

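Counts of genes that passed an adjusted p of 0.05 were recomputed under 1 alternative at a time, of which TPM with limma and DESeq2 change the test, the scaling and the filter together. In Pre-Tx, 22 genes were higher, and 13 with upper-quartile normalization, 0 to 20 when 1 library was left out, 15 with GC offsets and 20 with the replicate block, with 0 lower in all of these. Of all genes 8.52% were higher, and 3.74% with upper-quartile normalization, 6.97% with GC offsets and 8.5% with the replicate block. In Post-Tx, 1 gene was lower, against 3 with DESeq2 and with GC and length offsets, 5 with GC offsets, 4 with voom, 7 with the replicate block, 0 to 2 when 1 library was left out, and 0 with the fit of all 12 libraries, TPM, the filter at a mean CPM of 10, protein-coding transcripts or upper-quartile normalization. The share of all genes called lower moved too. It was 3.13% in the main fit, 7.19% with DESeq2, 4.65% with GC and length offsets and 4.89% with GC offsets. With voom it was 6.73% and with the replicate block 9.31%. With transplant in TCF-1 cKO, 0 were higher, against 15 with TPM, 11 with the CPM filter, 10 with upper-quartile normalization, 3 with protein-coding transcripts and 0 to 2 when 1 library was left out, and 9 were lower, against 3 with TPM, 16 with GC offsets, 14 with GC and length offsets and 4 to 14 when 1 library was left out. Of all genes 14.2% were higher there, and 29.1% with TPM, 17.2% with the CPM filter, 20.9% with upper-quartile normalization and 11.1% with protein-coding transcripts. Lower were 12.5% of all genes, and 7.81% with TPM, 14.7% with GC offsets and 15.7% with GC and length offsets. With transplant in WT, 1 was lower, against 4 with the CPM filter and upper-quartile normalization, 2 with protein-coding transcripts and voom, 0 to 1 when 1 library was left out, and 0 with DESeq2, GC offsets, GC and length offsets, RLE size factors, TPM, no filter or the replicate block. Of all genes 10.4% were lower there, and 20.5% with the CPM filter, 15.0% with upper-quartile normalization, 8.13% with protein-coding transcripts and 12.3% with voom. The interaction was below 0 for 28, against 14 with the CPM filter, 13 with upper-quartile normalization and 18 to 29 when 1 library was left out. Of all genes 11.5% were below 0, and 6.83% with the CPM filter, 3.36% with upper-quartile normalization and 6.05% to 13.2% when 1 library was left out. The replicate numbers do not pair the samples (r of the deviations of same-numbered libraries -0.272 to 0.248), so the block is no paired analysis. Signs that turned belong to genes that did not pass. In Post-Tx, Hspa5 gave 0.14 with TPM, 0.29 with the CPM filter, 0.20 with protein-coding transcripts, 0.16 with upper quartile and -0.31 to 0.05 with 1 library left out. Hsp90b1 gave 0.28 with TPM, 0.39 with the CPM filter, 0.30 with protein-coding transcripts, 0.26 with upper quartile and -0.17 to 0.11 with 1 library left out. Hsp90aa1 gave 0.27 with the CPM filter, 0.26 with protein-coding transcripts, 0.14 with upper quartile and -0.34 to 0.07 with 1 library left out. Hspa1a gave 0.43 with GC and length offsets, 0.41 with GC offsets, 0.29 with protein-coding transcripts, 1.69 with the block, 0.24 with upper quartile, 1.11 with voom, 0.12 with both copies summed and -1.12 to 3.21 with 1 library left out. Hspa1b gave -0.15 with the block, -0.89 with voom and -0.41 to 0.76 with 1 library left out. Hsf1 gave 0.04 with the CPM filter. Xbp1 gave -0.08 with DESeq2, -0.01 with GC and length offsets, -0.09 with GC offsets, -0.02 with RLE, -0.05 with no filter, -0.01 with voom and -0.12 to 0.14 with 1 library left out. Ern1 gave 0.51 with TPM, 0.23 with the CPM filter, 0.17 with protein-coding transcripts and 0.10 with upper quartile. Eif2ak3 gave 0.09 with TPM and 0.12 with the CPM filter. Trib3 gave 0.45 with TPM. In Pre-Tx, Hspa1a gave -0.53 with voom and -1.16 to 1.58 with 1 library left out. Hspa1b gave -0.96 with the block, -1.34 with voom and -1.73 to 1.75 with 1 library left out. Hsf1 gave -0.21 with the CPM filter, -0.16 with protein-coding transcripts and -0.31 with upper quartile. Xbp1 gave -0.21 with the CPM filter, -0.10 with protein-coding transcripts, -0.30 with upper quartile and -0.07 to 0.23 with 1 library left out. Atf4 gave -0.08 with the CPM filter and -0.17 with upper quartile. Ern1 gave -0.03 with the block and -0.05 with voom. The summed ER folding and UPR signalling levels in Post-Tx were higher in TCF-1 cKO as TPM (log2 0.13 and 0.09) and lower as normalized CPM (-0.18 and -0.28). The cause of these changes was not tested. Hspa1a, Hspa1b, Trib3, Ern1 and Dnajb9 hold under 100 counts in at least 1 library, so counting error weighs most on them, and 3 libraries per group limit all values.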
